A study of Mus musculus with 4 samples.

Results

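The 39 genes described here encode the folding machinery of the endoplasmic reticulum (ER) and the unfolded protein response, the programme that adjusts it. They were chosen by name from a list of chaperones, disulfide enzymes, degradation factors and stress sensors. Earlier results of these data were known at that point, so shares of them set beside all genes are a description and no independent finding. All 39 were on the array, with 91 probe sets among the 34945 that carry a single gene symbol, which cover 18193 genes. RNA came from MC3T3-E1 cells, a preosteoblast line from the calvaria of newborn C57BL/6 mice, grown in MEM α with 10% fetal bovine serum. Normal medium was that alone, and osteogenic medium added ascorbic acid 2-phosphate at 150 µM and beta-glycerophosphate at 10 mM. Each medium was sampled at day 3 and day 6, with 1 Affymetrix Mouse Genome 430 2.0 array for each of the 4 groups. There were no replicate cultures, so differences at a single day carry neither a test nor an error between cultures, and "past 2-fold" below describes 2 arrays and not the conditions.

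Proteins that enter the ER are folded by the Hsp70 chaperone BiP (Hspa5) and its cofactors, by the lectin chaperones calnexin and calreticulin, and by enzymes that form and rearrange disulfide bonds. Molecules that fail to fold are drawn back to the cytosol and destroyed, a route called ER-associated degradation (ERAD). When unfolded protein accumulates, 3 membrane sensors respond: ATF6, which is cut in the Golgi to release a transcription factor, IRE1 (Ern1), which splices the mRNA of the transcription factor XBP1, and PERK (Eif2ak3), which slows translation and favours ATF4. Osteoblasts secrete large amounts of collagen and lean heavily on this machinery. Cleavage, splicing and phosphorylation are not read by these arrays, which measure mRNA alone.

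Markers of cell type were read first. Of 9 osteoblast markers, 6 had a named probe set, and all 6 were above the floor, with summed signals of 164056 to 195135 over the 4 arrays. The sums were mostly the matrix genes Col1a1, Col1a2 and Sparc, at 60659, 71444 and 61257 on the normal day 3 array. Sp7, Alpl and Ibsp had 574, 815 and 386 there, and 831, 1756 and 11063 on the osteogenic day 6 array. Runx2, Bglap and Spp1 were not found. All 4 leukocyte markers found were below the floor on every array, as were 3 of 4 endothelial, 3 of 4 adipocyte and 2 of 4 skeletal muscle markers. The floor is a scaled signal of 57.8, the median of all probe set values, and stands in for detection calls. The control probe set for the 5′ end of 18S ribosomal RNA gave 746 on the osteogenic day 6 array and 5202 to 9162 on the other 3. The 3′ to 5′ signal ratios of Actb (1.17 to 1.25) and Gapdh (0.756 to 0.769) lay close together on the 4 arrays. Whether the 18S difference plays a part in the values of the osteogenic day 6 array was not tested.

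The folding genes were mostly highest on 1 array, that of osteogenic medium at day 6. On it 28 of the 39 genes had their highest signal, against 29.9% of all 12503 measured genes, and 16 of the 39 exceeded each of the other arrays by at least 1.5-fold, against 4.73%. For 8 genes, Hspa5, Sdf2l1, Creld2, Manf, Pdia4, Ero1b, Herpud1 and Atf6, that margin was at least 2-fold, which held for 1.67% of all genes. The osteogenic day 3 array had the lowest signal for 23 of the 39 genes, against 21.6% of all genes. No margin was asked here. The gap to the next lowest array ran from 4637 against 4643 for Derl1 to 468 against 794 for Ern1. In bulk RNA, a change in all cells and a change in the share of cells of a kind cannot be told apart.

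**Figure D1:**
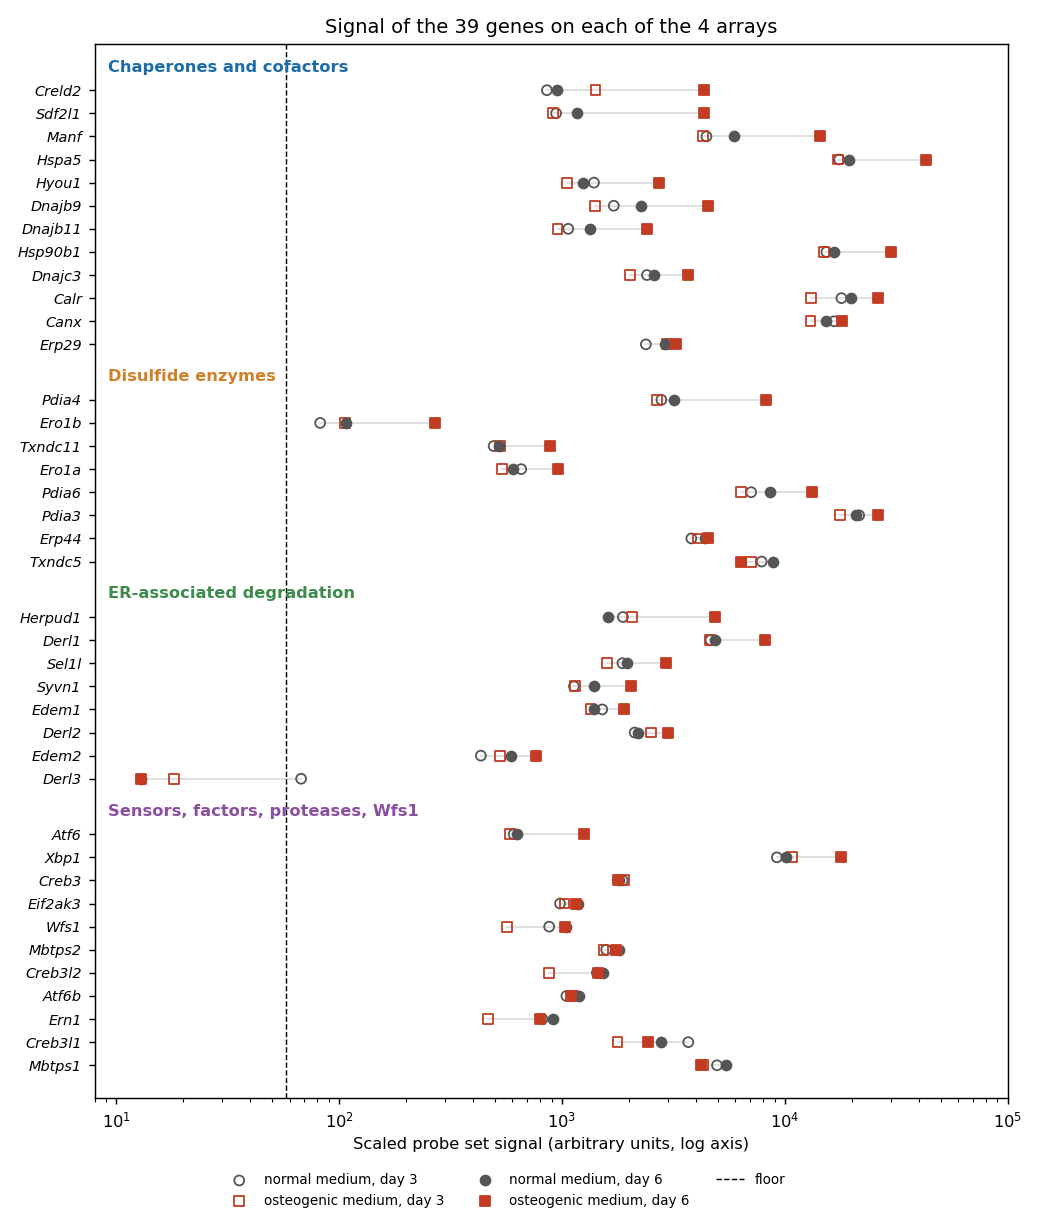
Scaled signal of each gene (horizontal log axis, arbitrary units) on the 4 arrays, in 4 groups by role and sorted by the medium difference at day 6; circles are normal and squares osteogenic medium, open at day 3 and filled at day 6, and the dashed line is the floor of 57.8. The filled square is the rightmost symbol for 28 of 39 genes, among them all but 1 of the ERAD genes. Among the sensors, factors and proteases it is rightmost for Atf6 and Xbp1 alone.

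Between media at day 6, 9 of 38 measured genes were higher in osteogenic medium by 2-fold or more, against 4.18% of all 11901 measured genes, and 0 were lower, against 2.78%. In all 28 lay above zero and 10 below, where 51.2% of all genes lay above. Their median log2 difference was 0.52, with a range of -0.47 to 2.19, beside a median of 0.01 for all genes. At day 3 the same contrast had 0 of 39 genes higher (1.99% of all genes) and 1, Creb3l1, lower (1.59%), with 13 above and 26 below zero (51.0% of all genes above) and a median of -0.05. The error of a single probe set, taken from the scatter among probe sets of the same gene, was an SD of 0.350 on the log2 scale at day 6 and 0.351 at day 3, and covers probe error only.

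Of the 38 genes measured at both days, 18 lay below zero at day 3 and above zero at day 6, against 18.5% of all 11259 genes measured at both, and 10 lay above at both (32.1%). Another 7 lay below at both (30.6%) and 3 above at day 3 only (18.8%). The largest group holds most of the chaperones and the PDI enzymes Pdia3, Pdia4 and Pdia6. Most day 3 differences in it were smaller than the probe error. The 10 genes above zero at both days were Creld2, Erp29, Ero1b, Txndc11, Erp44, Herpud1, Syvn1, Edem2, Derl2 and Xbp1.

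**Figure D2:**
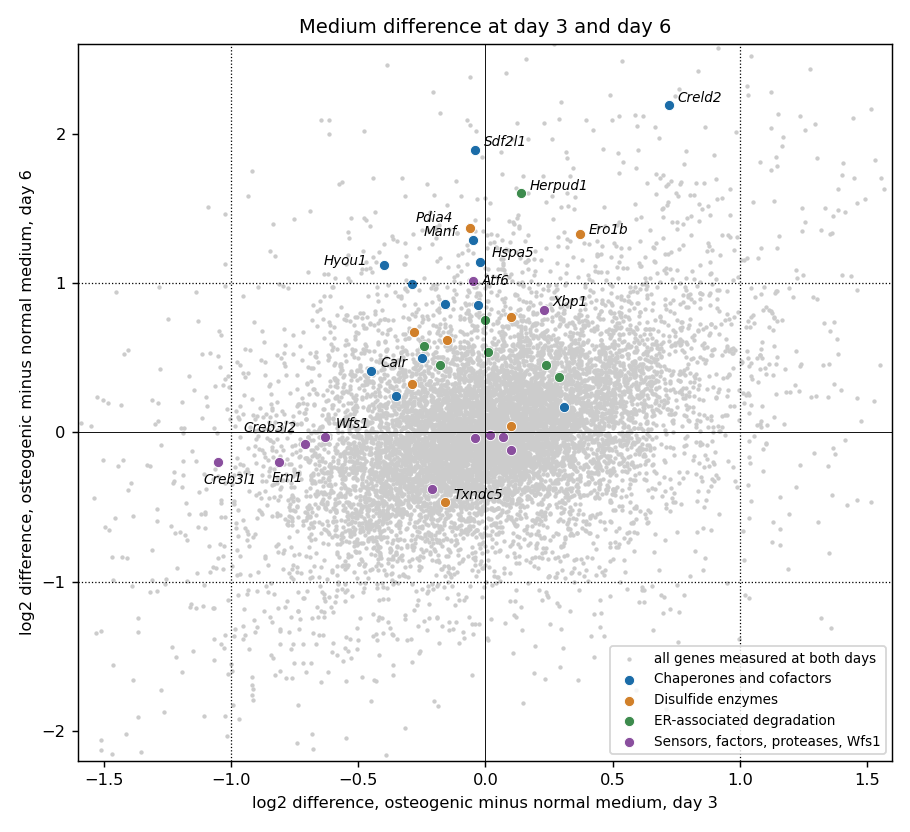
Log2 difference between osteogenic and normal medium at day 3 (horizontal) and day 6 (vertical); grey points are all genes measured at both days that fall within the axes, coloured points the genes described here by role, and dotted lines mark 2-fold. Coloured points spread upward at day 6, to 2.19 for Creld2, and lie on either side of zero at day 3, with Creb3l1 at -1.05 farthest to the left.

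Chaperones and their cofactors were all 12 above zero at day 6 (51.2% of all genes), with a median of 0.92. Of them 5 passed 2-fold (4.18% of all genes). Creld2, an ER-stress-inducible protein with EGF-like repeats, had signals of 857 in normal and 1415 in osteogenic medium at day 3, and of 950 and 4323 at day 6. It was thus 1.65-fold higher at day 3 and 4.55-fold at day 6, the highest difference of the 39 genes at each day. Sdf2l1, which works with the J protein Dnajb11 in a BiP complex, had signals of 942 and 916 at day 3 and of 1173 and 4340 at day 6, a 3.70-fold difference. At day 3 the log2 difference was 0.72 for Creld2 and -0.04 for Sdf2l1, and the gap between the genes was not tested.

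Manf, a small ER protein that binds BiP and can be secreted, had 4453 in normal and 4301 in osteogenic medium at day 3, and 5898 and 14387 at day 6 (log2 difference 1.29). Hspa5, BiP itself, had 17554 and 17298 at day 3 and 19524 and 43091 at day 6 (1.14). Its last value is among the brighter signals on that array, whose highest deposited value was 81516.3, and whether the array is still linear at such brightness was not tested. Hyou1, the large Hsp70-like nucleotide exchange factor of BiP, had 1393 and 1058 at day 3 and 1249 and 2722 at day 6, so it lay below zero at day 3 (-0.40) and above it at day 6 (1.12).

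The J proteins, which deliver clients to BiP and stimulate its ATPase, came next. Dnajb9 had 1709 in normal and 1402 in osteogenic medium at day 3, and 2273 and 4515 at day 6, a 1.99-fold difference that falls just short of the 2-fold mark, on whose other side Atf6 lies at 2.01-fold. Dnajb11 had 1068 and 956 at day 3 and 1333 and 2418 at day 6 (log2 difference 0.86). Dnajc3 was at 0.50 by its brightest probe set, but its 5 measured probe sets ranged from -0.16 to 0.50 and their mean was 0.12. Osteogenic medium at day 6 was the highest array for all 3 genes.

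Hsp90b1, the ER form of Hsp90, had 15380 in normal and 15055 in osteogenic medium at day 3, and 16634 and 30035 at day 6 (1.81-fold). The lectin chaperone gene Calr had 17964 and 13112 at day 3 and 19833 and 26309 at day 6, with log2 differences of -0.45 and 0.41. Its membrane-bound counterpart Canx was at -0.35 at day 3 and 0.24 at day 6. Among the chaperones, the lowest difference at day 6 was that of Erp29, a PDI family member without redox activity, with signals of 2382 and 2956 at day 3 and 2899 and 3253 at day 6 (0.17).

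Disulfide enzymes divided. Of 8 genes 7 lay above zero at day 6 (51.2% of all genes) and 2 passed 2-fold (4.18%), with a median of 0.64. Pdia4 (ERp72), a disulfide isomerase, had signals of 2796 in normal and 2676 in osteogenic medium at day 3, and of 3189 and 8244 at day 6, a 2.58-fold difference. Ero1b, an oxidase that recharges these isomerases, had 82.3 and 106 at day 3 and 107 and 269 at day 6 (2.51-fold). Its signals lay near the floor but above it on all 4 arrays, and its other measured probe set, above it on the osteogenic day 6 array alone, gave a log2 difference of at least 0.67.

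The related oxidase gene Ero1a was at 0.67 by its brightest probe set and at up to 0.93 by another. Pdia6 had 7069 in normal and 6379 in osteogenic medium at day 3, and 8601 and 13190 at day 6 (0.62). In osteogenic medium it was 2.07-fold higher at day 6 than at day 3. Txndc11, a thioredoxin-domain protein of the ER membrane, was at 0.77. Pdia3, which pairs with calnexin and calreticulin on glycoproteins, was at 0.32, and Erp44, which retains the Ero1 oxidases, at 0.04. Txndc5 was the exception among disulfide enzymes, with 7881 and 7052 at day 3 and 8835 and 6368 at day 6. Its log2 difference of -0.47 was the lowest of all 38 genes, and its other probe set gave -0.59.

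All 7 measured ERAD genes lay above zero at day 6 (51.2% of all genes), with a median of 0.54, and 1 passed 2-fold (4.18%). Herpud1, a membrane scaffold of the ubiquitin ligase complex, had signals of 1879 in normal and 2069 in osteogenic medium at day 3, and of 1608 and 4868 at day 6 (3.03-fold), and its other probe set gave a log2 difference of 1.73. The ligase gene Syvn1 (HRD1) was at 0.54 and its adaptor Sel1l at 0.58, with 5 Sel1l probe sets between 0.02 and 0.82. Within this complex the scaffold's difference was thus well above those of the ligase and its adaptor.

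Derl1 and Derl2, channel-associated rhomboid proteins, were at 0.75 and 0.45, and the 4 Derl1 probe sets lay within 0.66 to 0.75. Edem1, which marks misfolded glycoproteins by trimming mannose, was at 0.45 by its brightest probe set and 1.22 by the other. Edem2 was lowest of the ERAD genes, with 433 and 528 at day 3 and 593 and 768 at day 6 (0.37). Derl3 had 67.6 on the normal day 3 array and was below the floor elsewhere, at 12.9 to 18.2, so it entered no comparison of media at day 6. Its differences of -0.23 between media at day 3 and between days in normal medium run to the floor and are bounds on a larger difference.

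Sensors, transcription factors and the proteases that activate them mostly had medium differences near zero at day 6. Of the 11 genes in this group, which also holds Wfs1, 2 lay above zero and 9 below (51.2% of all genes above), with a median of -0.04. Atf6 had signals of 608 in normal and 586 in osteogenic medium at day 3, and of 626 and 1258 at day 6 (log2 difference 1.01). Its other probe sets gave 0.52 and 0.67, so its mean over probe sets, 0.73, did not pass 2-fold. Xbp1 had 9220 and 10798 at day 3 and 10130 and 17868 at day 6 (0.82), with 4 probe sets from -0.04 to 1.04. These probe set values do not separate spliced from unspliced Xbp1 mRNA.

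Other genes of this group had values near or below zero at day 6. Atf6b, the paralog of Atf6, was at -0.12, the PERK gene Eif2ak3 at -0.03, the IRE1 gene Ern1 at -0.20, Creb3 at -0.02, Creb3l2 at -0.08 and Wfs1, an ER membrane protein linked to Wolfram syndrome, at -0.03. Of the Golgi proteases that cut ATF6, Mbtps2 was at -0.04 and Mbtps1 was lowest in the group, with 4966 and 4281 at day 3 and 5444 and 4191 at day 6 (-0.38). The Ern1 value turned to 0.16 when its probe sets were averaged. The other probe set of Creb3l2 gave -0.62, and the mean over its probe sets was -0.35.

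The lowest values at day 3 were also in this group. Creb3l1 (OASIS), a membrane-bound factor of the ATF6 type that drives collagen genes in osteoblasts, had 3691 in normal and 1777 in osteogenic medium at day 3, and 2785 and 2429 at day 6. By its only probe set it was 2.08-fold lower in osteogenic medium at day 3 and 1.15-fold lower at day 6. Ern1 (-0.81), Creb3l2 (-0.71), a related factor of cartilage, and Wfs1 (-0.63) were the next lowest at day 3. In each of these 4 genes the osteogenic day 3 array was the lowest of the 4, and Ern1, whose dimmer probe set gave 0.30, was at -0.25 when its probe sets were averaged.

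The branches were then compared, using assignments from textbook knowledge that overlap in places. These lists were drawn up with earlier results of these data known. The ATF6 targets (Hspa5, Hsp90b1, Hyou1, Calr, Pdia4, Sdf2l1, Creld2, Manf and Herpud1) had a median log2 difference of 1.29 at day 6, with 7 of 9 past 2-fold and a range of 0.41 to 2.19. The XBP1 targets (Dnajb9, Dnajb11, Dnajc3, Edem1 and Pdia6) had a median of 0.62, with 0 of 5 past 2-fold and a range of 0.45 to 0.99. Of all genes 4.18% were higher by 2-fold or more. ERAD genes (0.54) and disulfide enzymes (0.64) had medians close to that of the XBP1 targets. The ranges overlapped, and the difference between branches was not tested. Given how the lists were drawn up, it is no independent finding.

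At day 3 the medians were -0.04 for ATF6 targets, -0.18 for XBP1 targets, 0.01 for ERAD genes and -0.11 for disulfide enzymes. All 5 XBP1 targets lay below zero then, between -0.29 and -0.15, each by less than the probe error. No branch had a member past 2-fold at day 3, where 1.99% of all genes were higher and 1.59% lower by that much.

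**Figure D3:**
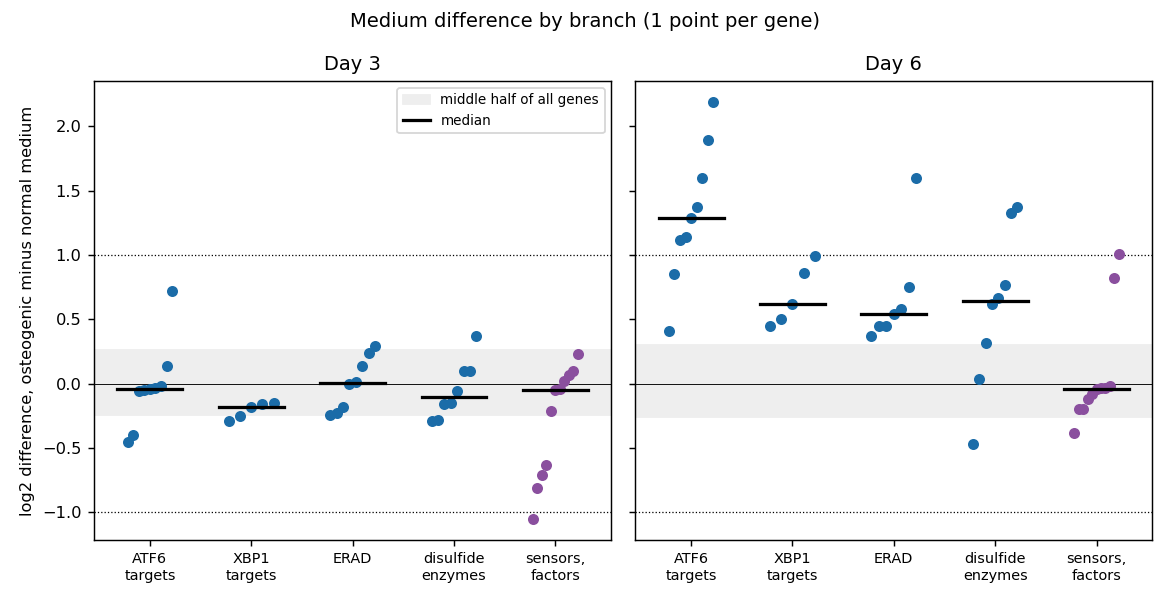
Log2 difference between osteogenic and normal medium at day 3 (left) and day 6 (right), with 1 point per gene, for the 4 branches and for the sensors and factors; black bars are medians, the grey band holds the middle 50 percent of all genes and dotted lines mark 2-fold. At day 6 the ATF6 targets have a median of 1.29 and the sensors and factors -0.04.

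Promoters of these genes are known for ER stress response elements, which bind ATF6 and XBP1 with the factor NF-Y. RefSeq promoter windows (GRCm38.p6, 250 bases before to 50 after the gene start) matched 33 of the 39 genes. Hyou1, Manf, Erp29, Derl1, Atf6 and Creb3l1 had none and were not searched. The matched genes had 38 windows. They were searched on both strands for the element ERSE (CCAAT, any 9 bases, then CCACG), for ERSE-II (ATTGG, any base, then CCACG) and for the XBP1 element UPRE (TGACGTGG); ERSE and ERSE-II share the letters CCACG, so the letters of a match can overlap. ERSE was found in 10 of 33 genes (30.3%), against 0.137% of all 27025 genes with a window, and ERSE-II in 2 of 33 (6.06%), against 0.0444%. UPRE was found in 2 of 33, Txndc5 and Txndc11, against 0.714%. ERSE was first described in promoters of several of these chaperone genes, so its share among them is no independent finding.

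Windows are shown for the 6 genes with an ERSE or ERSE-II match and the highest medium difference at day 6, to show the elements where they stand before the start. Each is written 5′ to 3′ on the gene's own strand, with the fixed letters of the match in capitals; where the match lies on the opposite strand the capitals read CGTGG and ATTGG.
Creld2 (chr15:88819396-88819695, plus strand): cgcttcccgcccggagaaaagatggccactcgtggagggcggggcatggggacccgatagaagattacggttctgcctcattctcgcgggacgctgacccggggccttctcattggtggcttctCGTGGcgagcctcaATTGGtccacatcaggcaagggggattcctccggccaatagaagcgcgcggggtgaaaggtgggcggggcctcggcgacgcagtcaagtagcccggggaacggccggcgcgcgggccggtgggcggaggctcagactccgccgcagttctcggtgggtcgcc
Herpud1 (chr8:94386179-94386478, plus strand): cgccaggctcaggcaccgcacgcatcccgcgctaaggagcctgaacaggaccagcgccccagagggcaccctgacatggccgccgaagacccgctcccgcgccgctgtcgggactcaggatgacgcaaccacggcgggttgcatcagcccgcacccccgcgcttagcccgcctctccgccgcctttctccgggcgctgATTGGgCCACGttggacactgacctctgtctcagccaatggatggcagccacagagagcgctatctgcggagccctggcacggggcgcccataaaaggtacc
Ero1b (chr13:12565633-12565932, plus strand): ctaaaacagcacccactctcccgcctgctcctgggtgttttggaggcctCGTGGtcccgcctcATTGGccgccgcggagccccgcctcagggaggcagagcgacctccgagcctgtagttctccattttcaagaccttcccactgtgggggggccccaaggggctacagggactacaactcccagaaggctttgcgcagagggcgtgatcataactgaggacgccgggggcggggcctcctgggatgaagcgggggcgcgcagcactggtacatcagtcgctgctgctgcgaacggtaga
Hspa5 (chr2:34771840-34772139, plus strand): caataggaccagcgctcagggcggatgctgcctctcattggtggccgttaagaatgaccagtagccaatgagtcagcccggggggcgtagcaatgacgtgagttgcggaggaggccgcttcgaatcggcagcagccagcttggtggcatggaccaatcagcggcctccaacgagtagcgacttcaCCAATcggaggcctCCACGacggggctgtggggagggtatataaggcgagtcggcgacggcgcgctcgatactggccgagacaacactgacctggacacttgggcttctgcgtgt
Dnajb11 (chr16:22857595-22857894, plus strand): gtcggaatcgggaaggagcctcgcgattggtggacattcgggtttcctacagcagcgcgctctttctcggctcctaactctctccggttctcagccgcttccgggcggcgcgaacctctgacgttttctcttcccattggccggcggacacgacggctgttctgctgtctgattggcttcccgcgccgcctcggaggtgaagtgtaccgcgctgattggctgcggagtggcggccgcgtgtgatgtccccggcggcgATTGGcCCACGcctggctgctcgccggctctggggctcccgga
Hsp90b1 (chr10:86705395-86705694, minus strand): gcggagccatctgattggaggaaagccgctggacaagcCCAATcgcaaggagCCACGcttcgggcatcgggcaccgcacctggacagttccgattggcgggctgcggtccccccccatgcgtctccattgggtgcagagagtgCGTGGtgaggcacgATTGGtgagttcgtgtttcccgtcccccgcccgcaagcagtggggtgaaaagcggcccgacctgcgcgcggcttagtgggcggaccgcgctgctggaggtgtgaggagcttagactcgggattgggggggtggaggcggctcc
In the Hspa5 window the match begins 65 bases before the start, in Creld2 126, in Ero1b 201 and in Herpud1, an ERSE-II, 52. Hsp90b1 has 2 matches, which begin 212 and 107 bases before the start, and the Dnajb11 match, an ERSE-II, lies within the first 50 transcribed bases.

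The other 6 ERSE genes are shown by the matched bases alone, written on the strand that reads CCAAT first, to let the spacer between the fixed letters be compared.
Calr (chr8:84847075-84847093): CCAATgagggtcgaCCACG
Derl3 (chr10:75893242-75893260): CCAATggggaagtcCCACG
Canx (chr11:50325800-50325818): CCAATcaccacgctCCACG
Pdia6 (chr12:17266491-17266509): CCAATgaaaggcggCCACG
Dnajc3 (chr14:118937827-118937845): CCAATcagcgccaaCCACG
Syvn1 (chr19:6046532-6046550): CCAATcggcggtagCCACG
The spacers differ from gene to gene. The medium differences of these genes at day 6 ran from 0.24 (Canx) to 0.62 (Pdia6), with Calr at 0.41, Dnajc3 at 0.50 and Syvn1 at 0.54, while Derl3 carries the element and was below the floor at day 6.

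Members with ERSE or ERSE-II had a median log2 difference of 0.85 at day 6 (11 measured, 0.24 to 2.19). All 11 lay above zero (51.2% of all genes). The 21 members whose windows held neither had a median of 0.32 (-0.47 to 1.89), with 12 above zero. The classes also differ in role. Of these 21 genes 9 belong to the group of sensors, factors, proteases and Wfs1, against 0 of the 12 with a match. Those 9 had a median of -0.04 with 1 above zero, and the other 12 had a median of 0.52 with 11 above zero. Sdf2l1 and Pdia4 passed 2-fold without a match in these windows, which says only that the letters are not there. Hyou1, Manf and Atf6 also passed 2-fold but had no window to search. These values are a description, with no test.

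**Figure D4:**
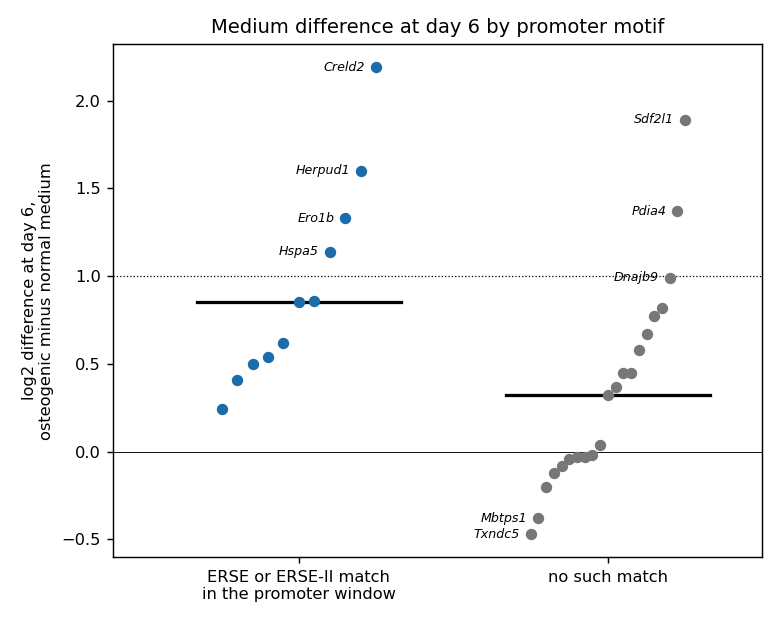
Log2 difference between osteogenic and normal medium at day 6, with 1 point per gene, for 11 measured genes with an ERSE or ERSE-II match in the promoter window and 21 without; black bars are medians and the dotted line marks 2-fold. All points on the left lie above zero, with a median of 0.85, and those on the right run from -0.47 to 1.89.

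In osteogenic medium 34 of 38 genes lay above zero between day 3 and day 6 (49.9% of all genes), and 13 were higher by 2-fold or more, against 3.70% of all 11947 genes, with 0 lower (2.62%). Their median was 0.83. Sdf2l1 was 4.74-fold higher at day 6 than at day 3, Manf 3.34-fold, Dnajb9 3.22-fold and Creld2 3.06-fold. Calr (2.01-fold) lay just past 2-fold, and Hsp90b1, 2.00-fold when rounded, just short of it. This comparison shares the osteogenic day 6 array with the medium comparison at day 6.

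In normal medium 30 of 39 genes lay above zero (47.7% of all genes), with a median of 0.14 and 0 of 39 past 2-fold in either direction (0.741% of all 11736 genes in each). The highest differences were those of Edem2 (0.45), Dnajb9 (0.41) and Manf (0.41), and the lowest that of Creb3l1 (-0.41). Of the ATF6 targets, Herpud1 (-0.22) and Hyou1 (-0.16) were below zero here and the other 7 above. The change of the medium difference from day 3 to day 6 was 1 or more on the log2 scale for 10 of 38 genes, against 4.54% of all 11259 genes, and -1 or less for 0, against 3.23%. It was highest for Sdf2l1 (1.93).

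Probe sets of the same gene served as a check on single values. For 25 of the genes more than 1 probe set was measured at day 6, and in 20 of these all had the same sign. The signs were opposite for Dnajc3, Pdia3, Erp44, Ern1 and Xbp1. At day 3 probe sets of opposite sign occurred in 8 of 23 such genes and between days in normal medium in 11 of 23, so the counts above and below zero in these comparisons depend on which probe set represents a gene. In osteogenic medium between days it was 5 of 25. Of the 9 genes past 2-fold, Creld2, Sdf2l1, Manf and Pdia4 rest on 1 measured probe set each. Hspa5 had probe sets at 1.14, 1.22 and 0.39, and their mean of 0.92 fell short of 2-fold.

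**Figure D5:**
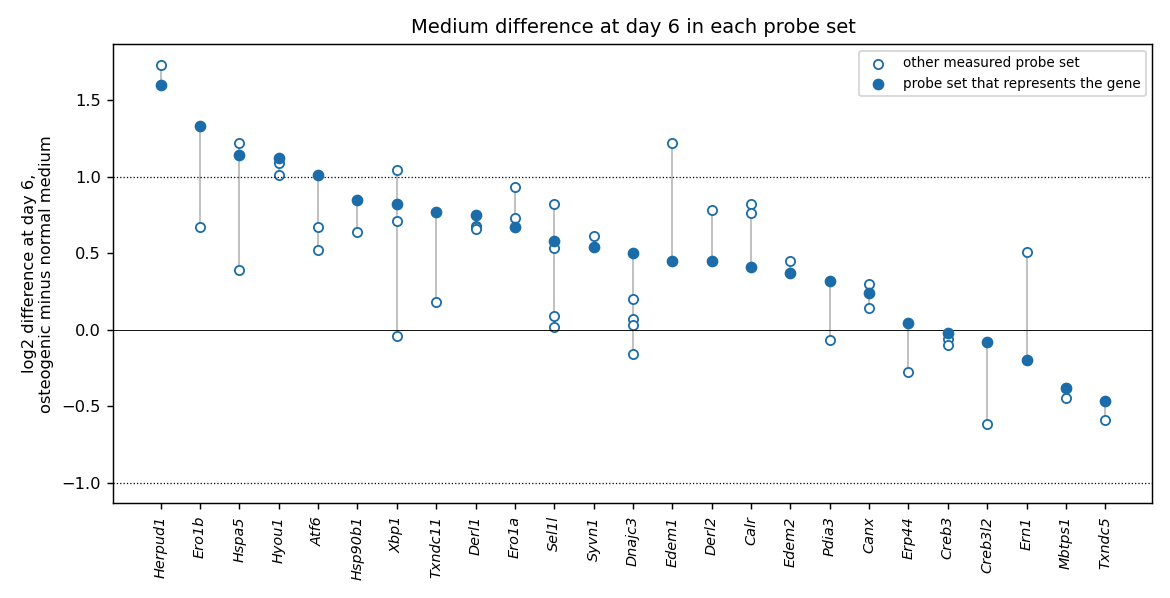
Log2 difference between osteogenic and normal medium at day 6 for every measured probe set of the 25 genes with more than 1; filled points represent the gene, open points are its other probe sets, and dotted lines mark 2-fold. Signals under the floor were set to it, so the open points of Ero1b and Edem2 are lower bounds. Herpud1 and Hyou1 lie past 2-fold in all their probe sets, while those of Xbp1 run from -0.04 to 1.04.

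For the medium as a main effect, limma was fitted to all 4 arrays with medium and day as terms. This leaves 1 residual degree of freedom, and a medium effect that grows between days counts as error there. At a false discovery rate of 5% it called 0 of 38 members and 0 of 11259 genes. At an unadjusted p under 0.05 it listed 2 of 38 members, Creld2 and Ero1b, and 1661 of 11259 genes. With each gene's own variance it listed 1 of 38 members and 848 of 11259 genes. Both times the share was lower among members than among all genes. Creld2 had the lowest adjusted p of the members, 0.261, for a log2 difference over both days of 1.46 (SE 0.38), above zero at 2 of 2 days. Ero1b was at 0.85 (SE 0.28, adjusted p 0.305 by limma), also above zero at both days.

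Other genes of the pathway were read from lists drawn up beside the members, likewise with earlier results of these data known. In the PERK and ATF4 arm 8 of 11 measured genes passed 2-fold at day 6 in osteogenic medium and 0 were lower, against 4.18% and 2.78% of all genes, with a median of 1.28 and all 11 above zero (51.2% of all genes). The highest were the pseudokinase gene Trib3 (3.48), the stress factor Ddit3 (2.28), Chac1, a glutathione-degrading enzyme (2.02), the transcription factor Atf3 (1.85) and Nupr1 (1.47). At day 3 this arm had a median of -0.21 and 0 of 11 genes past 2-fold, against 1.99% of all genes higher and 1.59% lower.

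Among 36 further genes, mostly of folding, translocation and ERAD, 22 lay above and 14 below zero at day 6 (51.2% of all genes above). Their median was 0.24, and 1, Cdk2ap2 (1.05), passed 2-fold, near the background of 4.18%. Cdk2ap2 itself is outside those 3 roles. At day 3 the median of the 36 genes was 0.01, with 0 of 36 past 2-fold, against 1.99% of all genes higher and 1.59% lower. P4hb, the disulfide isomerase that is also a subunit of collagen prolyl 4-hydroxylase, was at -0.01 at day 6, from 26681 to 26453, and Serpinh1, the collagen-specific chaperone, at 0.22. Both were chosen after their values were seen.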

How the data were processed

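Total RNA of 4 cultures was labelled with a 3′ in vitro transcription kit, per the labels' protocols, and read on Affymetrix arrays. The authors deposited 1 linear intensity per probe set and array, each array having a trimmed mean of 500 after 2% was left out at each end; the software is not given in the sources used here. Names came from the platform annotation, and 34741 of 34945 probe sets matched RefSeq by Entrez ID. Arrays were shifted to a common 75th percentile (factors 0.988 to 1.02), values under the pooled 50th percentile (57.8) set to that floor, and log2 taken. The brightest probe set by mean signal represented a gene, and a gene was measured if above the floor on at least 1 array compared. Scaling arrays to 1 mean hides any change in total RNA per cell. Limma 3.58.1 (R 4.3.3) fitted medium and day, and other steps used Python 3.11.15. Scaling, the floor, the choice of probe set and the differences between arrays were tested on simulated data, and the remaining steps were not.

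Genes described in full were those past 2-fold in a comparison of media or days and the highest and lowest of each role at day 6. Members and lists were chosen with earlier results of these data known. Alternatives covered scaling, floor, pseudocount, filter and probe set choice. Protein sequences were not analysed here. The number of arrays limits the precision.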

Additional observations from a re-analysis of the deposited data

Results flagged for a closer look

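For 3 genes the 2 arms of a contrast moved in opposite directions, each by more than the probe set SD. Hyou1 had a log2 medium difference of -0.40 at day 3 and 1.12 at day 6. Its other probe sets gave -0.26 and -0.32 at day 3, within the probe set SD. Calr had -0.45 and 0.41 in the same contrasts. Creb3l1, by its only probe set, had a day 6 minus day 3 difference of -0.41 in normal and 0.45 in osteogenic medium. With 1 array per group these differences between arms were not tested.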

How the results depend on the processing

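Under 9 alternatives and the unmoderated fit, 213 of 217 recomputed medians and counts stayed within the probe set SD, or within 1.5 times for counts. The exceptions were counts of lower members, which rose from 1 to 2 at day 3 and from 0 to 1 between days in normal medium, both with a pseudocount of 16 in place of the floor and with neither floor nor filter, because Derl3, a dim gene, then had differences of -1.29 and -1.89 at day 3 and -1.53 and -2.39 between days. The ERAD median at day 3, 0.01, ran from -0.07 to 0.03, so its sign was not kept. The median of the members at day 6 ran from 0.47 to 0.59 and their count past 2-fold from 7 to 9. Atf6 passed 2-fold in 6 of 9 settings (0.73 to 1.02) and Hspa5 in 7 of 8; the other 7 did in all 9. No paired analysis was possible because the labels number no replicates; day is a term in the limma fit, which compares media within days. Leaving out an array would end a comparison.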
